A study of Homo sapiens with 20 samples.

Results

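The 39 genes described here encode the proteins that bring glucose into the cell, break it down to pyruvate, turn pyruvate into lactate or admit it to the mitochondrion, and store glucose as glycogen. They were chosen by name for their place in the pathway, not by their values, though with earlier results of these data known. All 39 were found among the 25411 genes of the count tables. The cells were BEAS-2B, human bronchial epithelium immortalised in culture and grown in Dulbecco's modified Eagle's medium, and every nickel group had received nickel chloride. Total RNA was purified with an RNeasy kit and libraries came from a TruSeq RNA kit. The 20 libraries fall into 7 groups by title. Control_3D (n = 4) and Ni_3D (n = 2) are the unexposed and exposed cells of a 3-day experiment, and Ni_3D+14D (n = 2) carries the same exposure followed by 14 days. The 6-week experiment has unexposed Control_6W (n = 2) and exposed Ni_6W (n = 2), and Ni_6W+2W (n = 2) are cells washed after those 6 weeks and kept without nickel for 2 weeks. Ni_clone (n = 6) is 1 library from each of 6 clones, each expanded without nickel from a single colony of 6-week exposed cells. Concentrations are not printed, since the labels tie them to no library except the clones, where the unit as written is in doubt. Past exposure cannot be told apart from added time in culture or from cloning. Nothing in the labels makes the replicates separate cultures. The spread behind each p-value is therefore that of these libraries alone and may be technical.

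Glucose enters these cells through facilitative transporters, is trapped by hexokinase and is committed to glycolysis by phosphofructokinase, whose strongest activator is made and removed by the PFKFB enzymes. Pyruvate is either reduced to lactate by lactate dehydrogenase and exported with a proton by monocarboxylate transporters, or oxidised by the pyruvate dehydrogenase complex, which the PDK kinases switch off. Many genes of this pathway are known targets of hypoxia-inducible factor (HIF), whose degradation depends on iron-containing prolyl hydroxylases, and nickel ions are known to stabilise HIF in cultured cells. HIF binds DNA at a short element with the core ACGTG.

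The deposited totals ran from 8609243 reads in Control_3D replicate 4 to 88848786 in Ni_3D replicate 2. Levels below are CPM, counts scaled to library size after TMM normalisation. The airway keratins KRT8 and KRT18 were present at 187 to 831 CPM and 135 to 386 CPM, and KRT7 at 51.3 to 1113 CPM. KRT5, KRT14, TP63, SCGB1A1, FOXJ1 and MUC5B, markers of basal, secretory and ciliated airway cells, were at most 4.02 CPM. The 11 airway markers summed to 946 to 1078 CPM in Ni_3D beside 1278 to 1881 CPM in Control_3D, and to 378 to 832 CPM in Ni_6W beside 1336 to 1392 CPM in Control_6W. KRT7, KRT8 and KRT18 made up nearly all of these sums. In Ni_3D KRT7 and KRT8 lay below every control, while KRT18, at 191 and 255 CPM, overlapped them (192 to 264 CPM). The 7 airway markers tested had a median log2 fold change of 0.86 in Ni_3D and -0.95 in Ni_6W, and none was called. The part of these markers in the results was not tested. Control_3D replicate 1 and Ni_3D replicate 1 stood apart: ESR1, the oestrogen receptor, was at 3.51 and 10.7 CPM there and had no read in the other 18 libraries, and TFF1, its target, was at 20 and 33.3 CPM beside at most 0.117 CPM. CDH1, the epithelial cadherin, was at 11.4 and 29.0 CPM there and at most 2.06 CPM elsewhere. Summed over the 10 oestrogen and luminal markers, the level ran from 88.1 to 210 CPM in Control_3D, from 160 to 370 CPM in Ni_3D and from 86.7 to 188 CPM in the other groups. XBP1 alone was at 78.3 to 181 CPM in every library and made up most of the sum outside Control_3D replicate 1 and Ni_3D replicate 1. In Ni_3D replicate 2 XBP1 was at 153 CPM, and ESR1, TFF3, PGR and AGR2 had no read. Whether Control_3D replicate 1 and Ni_3D replicate 1 hold RNA of another cell line was not tested, and every replicate 1 value of Control_3D and Ni_3D is subject to that doubt. The controls of the short experiment also split, since 9.01% of all genes differed more than 2-fold between Control_3D replicates 1 and 3 and 1.6% between replicates 1 and 2. Results on Ni_3D are therefore given with and without these libraries. In such bulk samples fewer cells of a type and less RNA per cell cannot be told apart.

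The promoters of 5 members are printed to show the HIF core beside the responses that follow: PGK1, LDHA and ALDOC, which rose, PFKFB4, which rose and lacks the core in this window, and PDHB, which fell and holds it. Each is the 250 bases before the RefSeq transcription start (for LDHA, one of its 2 windows), on the strand of the gene, from GRCh38.p14, with every ACGTG or its reverse complement CACGT in capitals; CACGTG holds both, overlapping.
PGK1, chrX:78103998-78104247, plus strand: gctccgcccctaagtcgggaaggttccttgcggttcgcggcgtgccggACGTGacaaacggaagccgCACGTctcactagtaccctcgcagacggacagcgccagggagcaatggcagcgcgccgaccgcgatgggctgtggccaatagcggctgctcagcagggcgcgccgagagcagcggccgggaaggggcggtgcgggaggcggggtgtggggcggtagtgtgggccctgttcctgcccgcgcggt
LDHA, chr11:18394313-18394562, plus strand: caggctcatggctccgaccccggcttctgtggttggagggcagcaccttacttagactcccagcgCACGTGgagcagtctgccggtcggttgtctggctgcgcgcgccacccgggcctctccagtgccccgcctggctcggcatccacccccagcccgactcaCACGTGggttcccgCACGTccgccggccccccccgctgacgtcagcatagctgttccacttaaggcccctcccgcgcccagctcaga
ALDOC, chr17:28576896-28577145, minus strand: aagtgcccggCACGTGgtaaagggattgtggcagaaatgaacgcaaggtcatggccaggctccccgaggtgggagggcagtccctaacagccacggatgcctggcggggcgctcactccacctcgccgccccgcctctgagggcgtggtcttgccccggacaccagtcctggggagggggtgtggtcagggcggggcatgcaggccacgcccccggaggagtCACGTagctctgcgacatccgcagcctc
PFKFB4, chr3:48556804-48557053, minus strand: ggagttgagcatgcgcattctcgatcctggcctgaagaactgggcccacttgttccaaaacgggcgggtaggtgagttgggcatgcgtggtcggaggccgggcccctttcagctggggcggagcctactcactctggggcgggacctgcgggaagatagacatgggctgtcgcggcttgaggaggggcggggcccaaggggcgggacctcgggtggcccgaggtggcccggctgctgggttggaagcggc
PDHB, chr3:58433833-58434082, minus strand: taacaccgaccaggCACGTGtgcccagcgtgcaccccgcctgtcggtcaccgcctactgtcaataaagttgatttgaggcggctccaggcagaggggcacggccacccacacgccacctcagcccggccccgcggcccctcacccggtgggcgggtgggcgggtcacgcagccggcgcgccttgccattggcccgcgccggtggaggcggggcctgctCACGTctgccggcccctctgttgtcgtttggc

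The capitals begin 202 and 183 bases before the start in PGK1, 185, 87 and 73 in LDHA, 240 and 28 in ALDOC, and 236 and 32 in PDHB. Over windows of 300 bases (250 before and 50 after the start), 36 members had a RefSeq entry, and SLC2A3, PFKFB2 and SLC16A1 had none. A match on either strand was held by 23 of these 36 genes, and by 24.9% of the 27305 genes in the table. Counted by window, 27 of 67 member windows (40.3%) held it, beside 7518 of 35116 windows (21.4%) of all genes. Among members with an entry, 16 of the 20 that rose in Ni_3D held a match, as did 6 of the 14 tested members that were not called. These matches describe letters in a window and not binding.

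In Ni_3D most genes of glycolysis rose, as did LDHA, SLC16A3, PDK1 and PDK3, while most genes of glycogen metabolism were not called. Of the 38 members that passed the filter on low counts, 21 rose and 1 fell in Ni_3D against Control_3D by edgeR's quasi-likelihood test at an adjusted p under 0.05; across all 14927 genes tested the background was 2.83% higher and 1.51% lower, 4.33% in either direction. The members' median log2 fold change was 1.08, beside 0.03 over all genes. By step, 1 of 2 transporters rose, 14 of 18 genes of glycolysis, 2 of 4 of lactate formation and export, 2 of 6 of pyruvate oxidation with 1 fall, and 2 of 8 of glycogen metabolism. Together the 39 genes took 1.71 to 1.88% of all reads in Control_3D and 3.94 and 4.07% in Ni_3D.

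**Figure D1:**
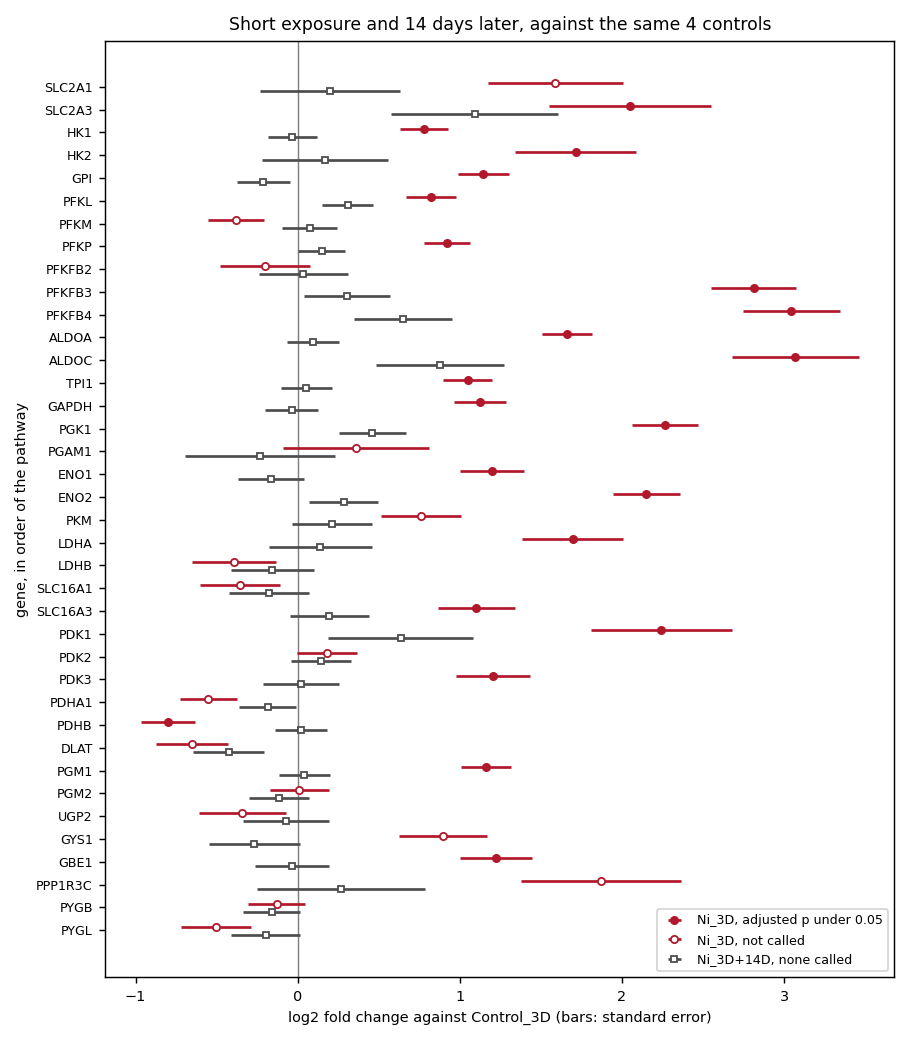
Log2 fold change of each of 38 members against the 4 Control_3D libraries, with its standard error, for Ni_3D (circles, filled where called) and Ni_3D+14D (squares). Of the 22 filled circles 21 lie right of 0 and PDHB lies left at -0.80; the squares have a median of 0.05.

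SLC2A1 (GLUT1), the main glucose transporter of proliferating cells, stood at 175, 201, 226 and 263 CPM in the controls and at 619 and 668 CPM in Ni_3D. Both nickel libraries lay above all controls, but the log2 fold change of 1.59 (SE 0.42) missed the threshold, with an edgeR adjusted p = 0.0516. SLC2A3 (GLUT3), a high-affinity transporter, was near the limit of detection, at 0.47 to 1.33 CPM in the controls and 4.39 and 2.48 CPM in Ni_3D. It rose by 2.05 (SE 0.50) on the log2 scale, a call lost when either nickel library or any of Control_3D replicates 2, 3 and 4 was left out, and its reads may be shared with the near-identical copy SLC2A14.

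HK2, the inducible hexokinase, was at 47.4, 60.7, 76.7 and 63.1 CPM in the controls and at 187 and 215 CPM in Ni_3D, a rise of 1.71 (SE 0.37) on the log2 scale; its call held in 5 of 14 alternatives and was lost when either nickel library was left out. HK1, the housekeeping form, rose by 0.78 (SE 0.15), from 257 to 306 CPM in the controls to 453 and 511 CPM. GPI, which isomerises glucose 6-phosphate, rose by 1.14 (SE 0.16). Of the 3 phosphofructokinase subunits, the liver form PFKL (0.82, SE 0.15) and the platelet form PFKP (0.92, SE 0.14) rose, whereas the muscle form PFKM, at 101 to 112 CPM in the controls and 86.4 and 76.6 CPM in Ni_3D, had a log2 fold change of -0.38 (SE 0.17) and was not called.

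PFKFB3 and PFKFB4, which make and remove the activator fructose 2,6-bisphosphate, were among the members with the largest log2 fold changes. PFKFB3 was at 72.9, 84.4, 65.1 and 59.0 CPM in the controls and at 461 and 517 CPM in Ni_3D, 7.02-fold higher. PFKFB4 was at 17.5, 20.6, 15.7 and 19.5 CPM and at 157 and 142 CPM, 8.24-fold higher. The lowest nickel library was several times the highest control for both genes. The edgeR adjusted p was 0.000224 for PFKFB3 and 0.000245 for PFKFB4. PFKFB2, the form best known from heart, overlapped the controls (8.85 to 11.3 CPM, beside 10 and 7.26 CPM).

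ALDOA, the main aldolase, was at 1594, 1479, 1600 and 1783 CPM in the controls and at 4398 and 5719 CPM in Ni_3D. ALDOC, the aldolase known from brain, was at 7.82, 6.57, 7.03 and 12 CPM and rose to 86.6 and 50.5 CPM. The log2 fold changes were 1.66 (SE 0.15) for ALDOA and 3.07 (SE 0.39) for ALDOC. Without Ni_3D replicate 1 the value for ALDOC was 2.61 (SE 0.45). TPI1, GAPDH and ENO1, abundant enzymes of the lower pathway, rose by 1.05 (SE 0.15), 1.12 (SE 0.16) and 1.20 (SE 0.20); GAPDH in particular has processed copies in the genome that could take some of its reads.

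PGK1, the first enzyme of the pathway to yield ATP, was at 522, 495, 523 and 586 CPM in the controls and at 2572 and 2481 CPM in Ni_3D. Both nickel libraries lay far above every control, and PGK1 rose 4.80-fold, by 2.26 (SE 0.20) on the log2 scale. ENO2, the enolase known from neurons, was at 192, 178, 138 and 163 CPM and rose to 816 and 660 CPM, by 2.15 (SE 0.21). PGAM1, phosphoglycerate mutase, overlapped the controls (24.6 to 53.0 CPM, beside 52.6 and 59.3 CPM), and its many processed copies make its counts uncertain. PKM, the pyruvate kinase of most tissues, was at 1769 to 2404 CPM in the controls and 2980 and 3831 CPM in Ni_3D, above them all, but its log2 fold change of 0.76 (SE 0.25) was not called (edgeR adjusted p = 0.0859).

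LDHA, the lactate dehydrogenase subunit that favours lactate, was at 484, 548, 510 and 644 CPM in the controls and at 1578 and 1925 CPM in Ni_3D. It rose by 1.69 (SE 0.31) on the log2 scale. LDHB, the subunit that favours pyruvate, was at 300, 303, 394 and 352 CPM and at 178 and 330 CPM, so that the groups overlapped and the log2 fold change of -0.39 (SE 0.26) was not called. Of the exporters, 1 of 2 rose. SLC16A3 (MCT4), known for lactate export from glycolytic cells, was at 674, 700, 871 and 1103 CPM and rose to 1827 and 1728 CPM, by 1.10 (SE 0.24). SLC16A1 (MCT1), which moves lactate both ways, overlapped its controls, at 99 to 159 CPM beside 93.7 and 109 CPM.

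At the entry to the mitochondrion 2 kinases that inhibit pyruvate dehydrogenase rose and 1 subunit of that complex fell. PDK1 was at 9.17, 18, 8.5 and 15.4 CPM in the controls and at 66.8 and 51.9 CPM in Ni_3D, a rise of 2.24 (SE 0.43) on the log2 scale. PDK3 was at 11.7, 16.1, 12.5 and 13.5 CPM and rose to 30.2 and 31.1 CPM, by 1.20 (SE 0.23). PDK2 overlapped the controls, at 53.3 to 71.9 CPM beside 76.6 and 66.5 CPM. PDHB, the beta subunit of the first enzyme of the complex, was at 65.1, 73.2, 80.8 and 85.7 CPM in the controls and at 48.0 and 38.6 CPM in Ni_3D. It was the only member that fell, by 0.80 (SE 0.17) on the log2 scale, with edgeR adjusted p = 0.0246. The alpha subunit PDHA1 (93.0 and 119 CPM, beside 152 to 165 CPM) and the acetyltransferase DLAT (42.7 and 47.5 CPM, beside 66.8 to 76.7 CPM) also lay below every control but were not called. PDK4, the kinase known from fasting, did not pass the filter: 4 libraries had no read, which allows up to 3 reads each, and Ni_clone replicate 1 had 84 reads beside at most 15 in any other library.

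In glycogen metabolism PGM1, which links glucose 1-phosphate to glycolysis, rose by 1.16 (SE 0.15), from 70.0 to 93.7 CPM in the controls to 182 and 174 CPM. GBE1, the branching enzyme, was at 50.7, 71.1, 50.4 and 56.7 CPM and rose to 141 and 124 CPM, by 1.22 (SE 0.22). GYS1, the muscle-type glycogen synthase, was at 164, 167, 211 and 220 CPM in the controls and 420 and 280 CPM in Ni_3D. PPP1R3C, a scaffold that brings phosphatase to glycogen, was at 3.40, 2.84, 1.89 and 2.12 CPM and 13 and 5.75 CPM. For GYS1 and PPP1R3C both nickel libraries exceeded the controls but differed from each other, and neither was called (log2 fold changes 0.89 and 1.87, edgeR adjusted p = 0.0728 and 0.0509). Neither phosphorylase, which breaks glycogen down, was called: PYGB overlapped the controls, and PYGL lay below them at 144 and 181 CPM beside 199 to 264 CPM. PGM2 and UGP2 overlapped the controls.

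**Figure D2:**
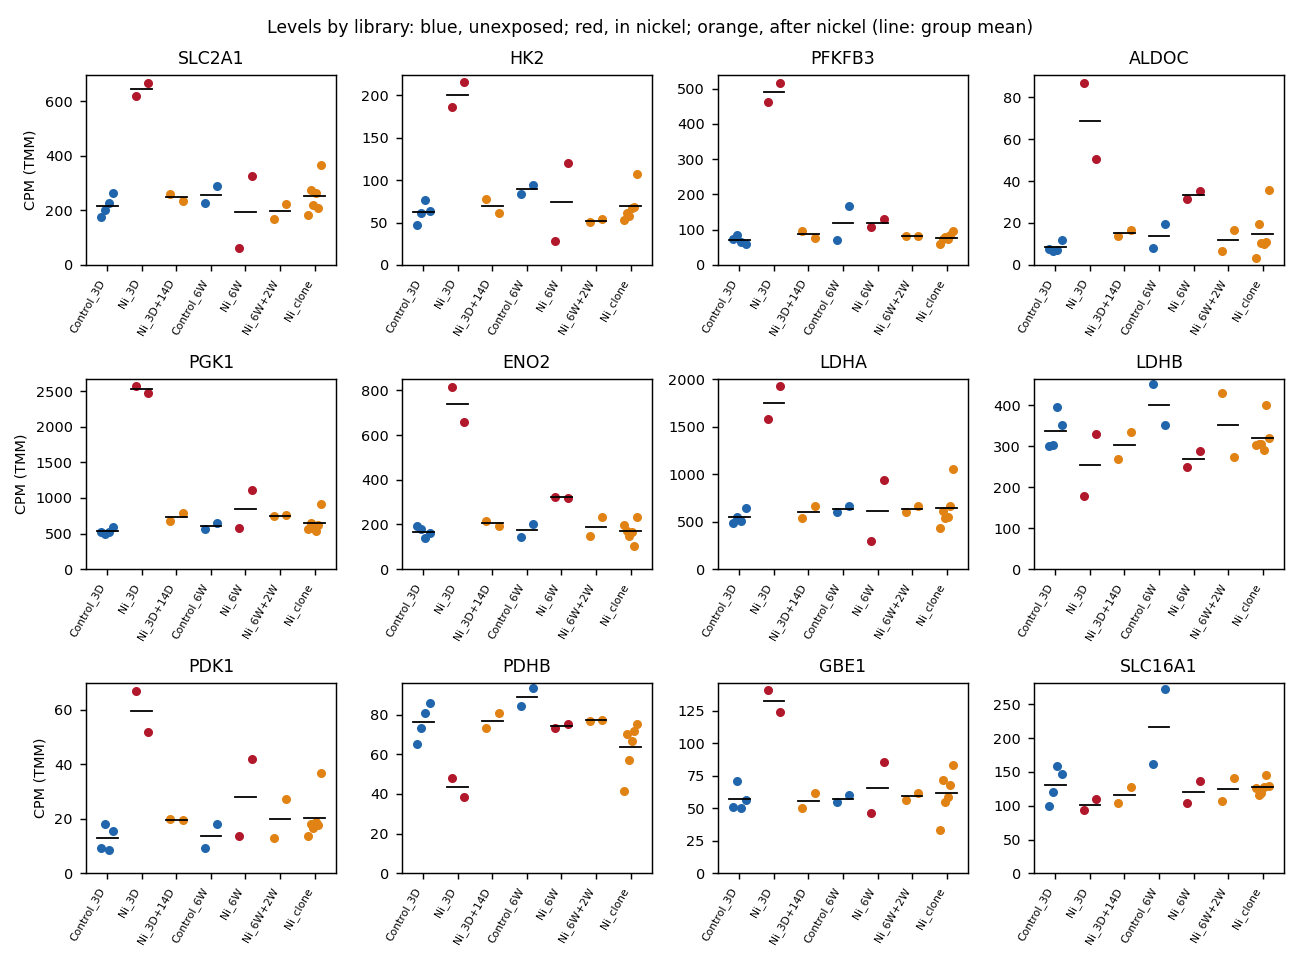
Level of 12 members in each library (points, CPM after TMM) with the group mean (line). Ni_3D stands above every other group for SLC2A1, HK2, PFKFB3, ALDOC, PGK1, ENO2, LDHA, PDK1 and GBE1, and below the other groups' means for PDHB; the 2 Ni_6W points lie far apart for SLC2A1, HK2 and LDHA.

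Of 22 isozymes in 9 shared steps, the share in Ni_3D lay above all 4 controls for 6, below them for 8 and overlapped them for 8. These counts are not independent, since a higher share of either isozyme in a step of 2 is a lower share of the other. Shares were taken of the authors' RPKM, which is per length, so that genes can be compared. RPKM did not track CPM for every gene. PDK3 was at 3.04 and 0.938 RPKM in Control_3D replicates 3 and 4, beside 12.5 and 13.5 CPM, so the shares of the PDK kinases are less certain. By RPKM the Ni_3D libraries, at 4.07 and 2.51, overlapped the controls for PDK3, so its rise rests on the counts. All shares are a description with no test, since 2 libraries against 4 cannot reach significance by exact permutation. LDHA made up 51.0 ± 3.77% of LDHA and LDHB (SD, n = 4) in Control_3D and 81.8 ± 4.48% (SD, n = 2) in Ni_3D. PDK1 went from 10.4 ± 4.38% of the 4 kinases to 33.6 ± 0.505%, while PDK2 went from 82.1 ± 5.38% to 58.8 ± 1.75%. HK2 made up 9.93 ± 1.37% of HK1 and HK2 in the controls and 17.5 ± 0.223% in Ni_3D. The muscle subunit PFKM went from 9.0 ± 0.506% to 3.97 ± 0.165% of the phosphofructokinases. ALDOC was a minor aldolase in both groups, at 0.489 ± 0.104% and 1.35 ± 0.718%, and ENO2 went from 4.07 ± 0.56% to 7.72 ± 1.77% of the enolases. SLC16A1 went from 7.64 ± 1.01% to 2.90 ± 0.417% of the monocarboxylate transporters. PFKFB2 went from 7.42 ± 1.0% to 1.11 ± 0.234% of the PFKFB enzymes, whereas the shares of PFKFB3 and PFKFB4 overlapped the controls. The shares of both glucose transporters, PFKL, PFKP, PDK3 and PDK4 overlapped them too.

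**Figure D3:**
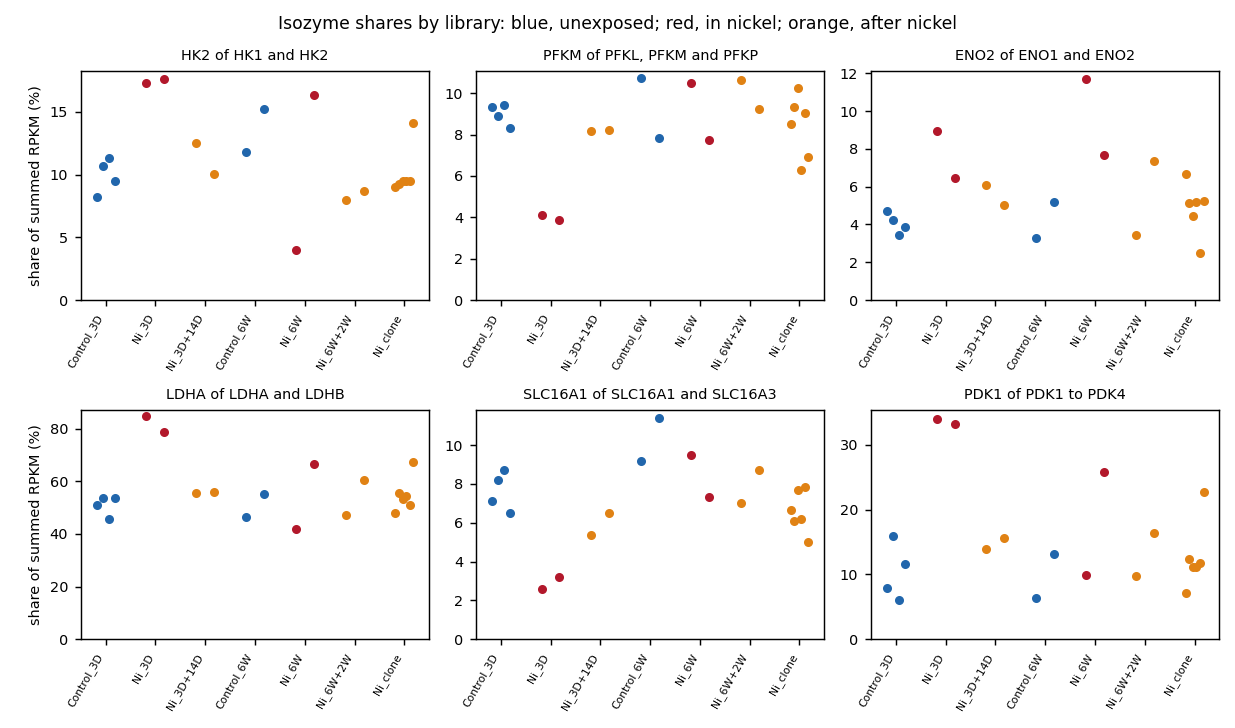
Share of 6 isozymes in the summed RPKM of their step, one point per library and each axis from 0. In Ni_3D the shares of HK2, ENO2, LDHA and PDK1 lie above all Control_3D points and those of PFKM and SLC16A1 below them, and for LDHA, HK2 and PDK1 the Ni_3D+14D points lie nearer the controls than Ni_3D; for ENO2 1 of them, at 6.06%, lies close to the lower Ni_3D point of 6.47%.

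The number of calls depended on single libraries more than the size of the changes did. In 25 of 38 members (65.8%) both Ni_3D libraries lay above all 4 controls, beside a background of 19.8% of genes, and in 5 (13.2%) below, beside 18.8%. The count of 22 called members was 9 and 12 with Ni_3D replicate 2 or 1 left out, and 13 with Control_3D replicate 3 left out. With both libraries holding oestrogen markers removed, 7 were called (ALDOA, ENO2, GAPDH, PFKFB3, PFKFB4, PGK1 and TPI1). Of the pairs of Control_3D, replicates 1 and 2 alone gave 11 calls (28.9%) and replicates 3 and 4 alone gave 19 (50%). The share of all genes called also moved. It was 0.813% and 7.95% with these pairs, 0.912% without Control_3D replicate 3 and 4.33% with all libraries. Fewer of all genes were also called with 1 Ni_3D library left, so the lower counts there were not particular to the members. PDHB was called in 6 of 14 alternatives. Over the 14 alternatives the members' median log2 fold change ran from 0.94 to 1.14, and PFKFB3, PFKFB4, ALDOA, PGK1 and ENO2 were called in all of them. Without the 2 libraries with oestrogen markers the median was 1.01. DESeq2 called 28 members (73.7%, beside 12.7% of all genes): the same 22 and SLC2A1, PKM, GYS1, PPP1R3C, PDHA1 and DLAT.

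Counts in the lists of neighbouring metabolic pathways stand beside a background of 2.83% higher and 1.51% lower. Of 65 other genes of glucose uptake, glycolysis and glycogen, 51 were tested and 1 rose in Ni_3D by edgeR: PPP1R3E, another glycogen phosphatase scaffold (log2 fold change 1.35, SE 0.34; 18.5 ± 11 CPM in Ni_3D and 7.27 ± 1.76 CPM in Control_3D). None of 11 genes of the pentose phosphate pathway was called, and their median log2 fold change was -0.03. Of 21 genes of the citric acid cycle 1 fell, SDHD, a membrane subunit of succinate dehydrogenase (-0.93, SE 0.20), and the list's median was -0.31. Of 26 targets of hypoxia outside glycolysis 17 rose, with a median of 1.93. The largest of these rises were CA9, a carbonic anhydrase (6.26, SE 1.0), and NDRG1, a stress-responsive gene (4.82, SE 0.69). None of the 26 was called lower, but ADM lay below every control, at 145 and 163 CPM beside 201 to 293 CPM.

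By 14 days after the short exposure the pathway was near its control level. In Ni_3D+14D against Control_3D none of the 38 members was called by edgeR, nor was any other gene (background 0%), with 2 members and 613 genes at an unadjusted p under 0.05; DESeq2 called 16 genes and no member. The members' median log2 fold change was 0.05. Both libraries lay above all controls for 7 members (18.4%, background 11.2%): SLC2A3, PFKL, PFKP, PFKFB4, ALDOC, PGK1 and PDK1. They lay below all controls for 4 (10.5%, background 10.8%): GPI, ENO1, PDHA1 and DLAT. PGK1, at 680 and 782 CPM, exceeded the highest control of 586 CPM, and ALDOC, at 13.6 and 16.6 CPM, the highest of 12 CPM; their unadjusted log2 fold changes were 0.46 (SE 0.21) and 0.88 (SE 0.40). LDHA, at 542 and 661 CPM, SLC2A1, at 260 and 236 CPM, and HK2, at 77.8 and 61.2 CPM, overlapped the controls.

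Set directly against Ni_3D, 10 members fell and none rose in Ni_3D+14D by edgeR, beside a background of 0.134% lower, 0.121% higher and 0.255% in either direction. These 10 were among the 20 genes that fell in this comparison: GPI, PFKFB3, PFKFB4, ALDOA, TPI1, GAPDH, PGK1, ENO1, ENO2 and PGM1. PFKFB3 came down from 461 and 517 CPM to 96.2 and 77.6 CPM, a log2 fold change of -2.51 (SE 0.33), and ALDOA from 4398 and 5719 CPM to 1744 and 1700 CPM, -1.57 (SE 0.19). For 26 members (68.4%, background 26.9%) both later libraries lay below both Ni_3D libraries. PDHB was at 73.4 and 80.6 CPM, above both Ni_3D libraries, with a log2 fold change of 0.82 (SE 0.19) that edgeR did not call. DESeq2 called 19 members, 18 lower and PDHB higher, beside 3.02% of all genes. The count of 10 was 0 without either Ni_3D+14D library, 6 without Ni_3D replicate 1, 2 without Ni_3D replicate 2 and 2 without the libraries with oestrogen markers, while the median log2 fold change stayed between -0.99 and -0.85. The share of all genes called was lower in each of these fits too, so the counts do not show a loss particular to the members. This comparison and the one of Ni_3D with Control_3D share the Ni_3D libraries. The LDHA share was 55.7 ± 0.154% and the PDK1 share 14.8 ± 1.26% (SD, n = 2).

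After 6 weeks of nickel no member was called against Control_6W by edgeR, beside a background of 1.25% higher, 1.21% lower and 2.47% in either direction; 10 members had an unadjusted p under 0.05, and DESeq2 called 5 higher (SLC2A3, PFKL, PFKFB4, ENO2 and PGM1) and 1 lower (SLC16A1), 15.8% of members beside 14.5% of all genes. The median log2 fold change was -0.04. Both Ni_6W libraries lay above both controls for 8 members (21.1%, background 24.5%) and below them for 6 (15.8%, background 22.5%), so neither share was above that of all genes. SLC2A3 was at 6.76 and 5.21 CPM in Ni_6W and 0.82 and 1.35 CPM in Control_6W, and its log2 fold change of 2.47 (SE 0.63) had edgeR adjusted p = 0.0541. ENO2 was at 321 and 320 CPM, beside 146 and 202 CPM. ALDOC was at 31.2 and 35.1 CPM, beside 8.26 and 19.6 CPM. ALDOA was at 2189 and 2125 CPM, beside 1659 and 1854 CPM, so that the groups did not overlap.

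The 2 Ni_6W libraries differed more than 2-fold for 7 of 38 members (18.4%), about the share of all genes (18.1%), and their median absolute log2 difference was 0.43 over members and 0.49 over all genes. SLC2A1 was at 61.2 CPM in replicate 1 and 325 CPM in replicate 2, beside 225 and 288 CPM in the controls. HK2 was at 28.3 and 120 CPM, beside 84.2 and 94.0 CPM. LDHA was at 293 and 936 CPM, beside 606 and 661 CPM. For 9 of 38 members in all, replicate 1 lay below both controls and replicate 2 above both. The share of all genes with this pattern is not given here, so the count cannot be read as particular to these members. PGK1 (584 and 1106 CPM, beside 569 and 650 CPM), PFKFB4 (23.2 and 56.4 CPM, beside 18.4 and 15.7 CPM) and PDK1 (13.8 and 41.9 CPM, beside 9.30 and 18.2 CPM) were also higher in replicate 2. PDK3 (14.1 and 21.2 CPM, beside 16.5 and 15.4 CPM), GBE1 (46.2 and 85.4 CPM, beside 54.7 and 59.9 CPM) and GYS1 (99.5 and 182 CPM, beside 221 and 126 CPM) were too. The members' share of reads was 1.44% in replicate 1 and 2.21% in replicate 2. With replicate 1 alone SLC2A3 rose, and SLC2A1, HK2, LDHA, SLC16A3 and DLAT fell, 15.4% of members beside 18.5% of all genes; with replicate 2 alone neither a member nor any other gene was called. A lone library was assumed to vary like the other groups.

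The response at 6 weeks was set against that at 3 days as a difference of log2 fold changes, each against its own controls. No member passed by edgeR (background 0%), although 22 of 38 had an unadjusted p under 0.05, and the median difference was -0.88, beside 0.04 over all genes. DESeq2 called 11 members, all lower at 6 weeks (28.9%, beside 1.36% of all genes). PFKFB3 had the smallest adjusted p, with a difference of -2.80 (SE 0.41) and edgeR adjusted p = 0.0571; it was at 108 and 131 CPM in Ni_6W and 70.6 and 167 CPM in Control_6W. Without Ni_6W replicate 2 the count was 13, all lower (33.3%, beside 1.94% of all genes), and without Control_6W replicate 1 PFKFB3 alone was called.

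In Ni_6W+2W, the washed cells, no member was called against Control_6W or against Ni_6W by edgeR (background 0% in both). At an unadjusted p under 0.05 there were 1 and 4 members, and 1956 and 983 genes; DESeq2 called no member and 323 and 7 genes. The median log2 fold changes were -0.04 and -0.10. Both libraries lay above Control_6W for 5 members (13.2%, background 23.3%) and below for 9 (23.7%, background 20.8%). PGK1, at 747 and 754 CPM, lay above the controls (569 and 650 CPM), and SLC2A1, at 169 and 224 CPM, just below them (225 and 288 CPM). LDHA, at 603 and 665 CPM, spanned its controls (606 and 661 CPM). ALDOC was at 6.66 and 16.7 CPM, ENO2 at 147 and 233 CPM and SLC2A3 at 0.791 and 2.62 CPM, all with a library inside or below the range of Control_6W. Without Ni_6W replicate 2, SLC2A1, LDHA, PKM and DLAT rose in Ni_6W+2W relative to the remaining Ni_6W library, 10.3% of members beside 7.4% of all genes. Control_6W did not differ by a call from Control_3D in any member (background 0%), with 2 members at an unadjusted p under 0.05; DESeq2 called no member and 48 genes. Its libraries lay above all of Control_3D for 4 members (10.5%, background 8.88%), SLC16A1 among them, and below for PFKL alone (2.63%, background 7.56%).

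Among the clones 1 member fell against Control_6W, SLC16A1, beside a background of 2.38% lower and 5.26% in either direction. SLC16A1 ran from 116 to 145 CPM in the 6 clones with a median of 127 CPM, below 161 and 273 CPM in Control_6W, a log2 fold change of -0.75 (SE 0.17, edgeR adjusted p = 0.0355). The Control_3D libraries were at 99 to 159 CPM. The call was lost without Control_6W replicate 2 and without any of clones 2, 3, 4 and 6. Both PDHA1 and PDHB lay below both controls in every clone without a call, as 3 members did in all (7.89%, background 12.5%); PFKL and PFKFB4 lay above (5.26%, background 11.8%). Against Ni_6W+2W no member was called (background 0.014% higher, 0.014% lower and 0.028% in either direction), and none had an unadjusted p under 0.05, beside 943 genes; DESeq2 called no member and 64 genes. No member lay above both Ni_6W+2W libraries in every clone (background 4.2%), and PDHB lay below (2.63%, background 4.43%). Of the other pathway genes 5 of 50 rose and 1 fell in the clones against Control_6W (background 2.89% and 2.38%). SLC16A4, a transporter of the same family, was at 0.705 to 2.53 CPM in the clones and 0.0547 and 0.122 CPM in Control_6W. These Control_6W levels are near the limit of detection, since 0.0547 CPM is the level of 1 read in replicate 1. PHKA1, a subunit of the kinase that activates phosphorylase, was at 1.88 to 9.67 CPM and 0.492 and 0.795 CPM. In Control_3D these genes were at 0.425 to 1.03 CPM and 0.118 to 4.41 CPM, above or spanning Control_6W.

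Among the clones, clone 6 was the highest for 23 of 38 members, beside 18.7% of all genes, and clone 1 the lowest for 17, beside 24.9%. ALDOC ran from 3.13 CPM in clone 1 to 35.7 CPM in clone 6, with a median of 10.6 CPM and an SD of 1.11 on the log2 scale. LDHA ran from 433 CPM in clone 1 to 1059 CPM in clone 6 (median 580 CPM). PDK1 ran from 13.7 to 36.8 CPM (median 17.9 CPM) and HK2 from 52.8 to 107 CPM (median 64.2 CPM), with the same clones at the ends. PGK1 ran from 533 to 918 CPM (median 601 CPM), SLC2A1 from 182 to 365 CPM (median 243 CPM) and GBE1 from 33.6 to 83.2 CPM (median 63.0 CPM), again highest in clone 6. For ENO2 (103 to 231 CPM, median 168 CPM) the lowest was clone 5, and for PFKFB4 (19.3 to 31.4 CPM, median 24.4 CPM) the highest was clone 2. PDHA1 was nearly level, from 130 to 141 CPM. The SD between clones was above the all-gene median of 0.23 for 22 of 38 members, and for 14 when clone 6 was left out. The 39 genes took 2.29% of reads in clone 6 and 1.71 to 1.94% in the other clones, against 3.94% or more in Ni_3D. Each clone is 1 library, so that clone and library cannot be told apart.

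**Figure D4:**
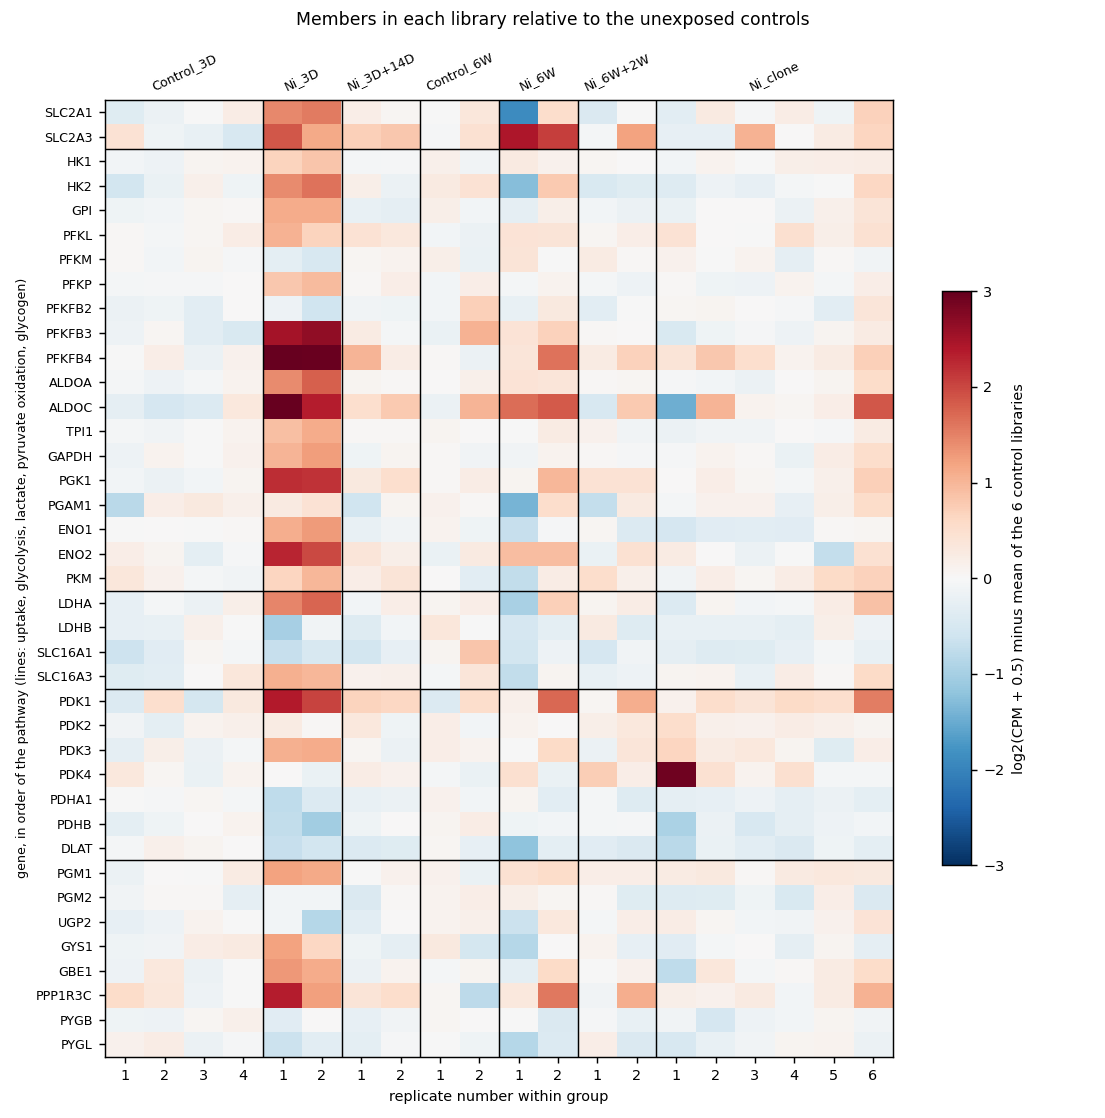
Log2(CPM + 0.5) of the 39 members in the 20 libraries, minus the mean of the 6 control libraries; colours saturate at -3 and 3. Ni_3D is red through most of uptake, glycolysis and PDK1, Ni_6W replicates 1 and 2 differ in colour for SLC2A1, HK2 and LDHA, and clone 6 is redder than the other clones.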

How the data were processed

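The authors deposited raw read counts per RefSeq gene for each library, not normalised, with an RPKM value beside each count per the file headers. The submitters' processing notes name STAR 2.4, DESeq, DESeq2, GRCh37 and hg19; on their roles, counting and strand nothing is given in the sources used here, so overlapping and antisense genes may share reads. Libraries were joined by RefSeq identifier because 28 symbols in 2 libraries had been altered by a spreadsheet.

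All 14 libraries other than the clones entered 1 fit in edgeR 4.0.16 (R 4.3.3): TMM, filterByExpr (minimum count 10, minimum total 15), robust quasi-likelihood F test. Clones were fitted with Control_6W or Ni_6W+2W alone. p-values were adjusted by Benjamini-Hochberg over all genes tested and called under 0.05. SE is the log2 fold change over the root of F. DESeq2 1.42.0, RLE size factors, no filter, other sets of libraries and each library left out were tried. The fit was tested on simulated data. Isozyme shares used the authors' RPKM. Members, gene lists and the genes named were chosen by pathway with earlier results of these data known. The rule for names gave each library's value for the listed members and for any member called, and up to 4 called genes with the largest change of each other list. Promoters came from RefSeq (GRCh38.p14). The authors' comparison tables were not used.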

Additional observations from a re-analysis of the deposited data

Results flagged for a closer look

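In the groups of 4 or 6 libraries, a library was looked at when its gap to the nearest other took up more of the group's range than Dixon's critical value allows. Of 77 groups checked 12 held such a library. The critical value allows about 1 in 20 for independent, normally distributed values. The genes share libraries and most of the 12 were clone 6, so whether 12 is an excess was not tested. Clone 6 was high and apart for HK2 (107 CPM), ALDOA (2436 CPM), TPI1 (1019 CPM), PGK1 (918 CPM), LDHA (1059 CPM), PDK1 (36.8 CPM) and PPP1R3C (5 CPM). Clone 1 was high and apart for PDK2 (93.8 CPM) and PDK4 (3.87 CPM). LDHB was highest in clone 5 (401 CPM) and PGM1 lowest in clone 3 (80.7 CPM). PGAM1 was low in Control_3D replicate 1 (24.6 CPM), 1 of the 2 libraries with oestrogen markers.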

How the results depend on the processing

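Counts of called members depended on the libraries more than the members' median did. By DESeq2 the count was 19 (18 lower, PDHB higher) in Ni_3D+14D against Ni_3D, 6 in Ni_6W and 11 for the difference between the 6-week and 3-day responses. With no filter the last count was 1, and without Control_3D replicates 3 and 4 it was 1, while Ni_3D stood at 11. Without the libraries with oestrogen markers the counts were 7 in Ni_3D and 2 in Ni_3D+14D against Ni_3D. With each library left out in turn the count ran from 9 to 22 in Ni_3D, 0 to 6 in Ni_3D+14D against Ni_3D, 0 to 6 in Ni_6W, 0 to 4 in Ni_6W+2W against Ni_6W, 0 to 1 in Control_6W against Control_3D, 0 to 13 for the difference of responses, 0 to 2 in the clones against Control_6W, and 14 to 24 for members above the all-gene spread among clones. Without Control_6W replicate 1, PFKFB3 had a log2 fold change of 1.23 in Control_6W against Control_3D. In the clones against the remaining Control_6W library the log2 fold change was -1.08 for PFKFB3 and -1.08 for SLC16A1. These values rest on 1 Control_6W library. The cause of these changes in the counts was not tested, except that fewer libraries leave fewer degrees of freedom. The share of all genes called moved between these fits as well. The highest share of members called was below that of all genes in Ni_6W and the clones, and above it in the others listed.

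The labels do not say that replicate numbers pair libraries, and same-numbered deviations correlated from -0.05 to 0.35 over at most 2 pairs, the highest between the 2 libraries with oestrogen markers. With the number as a replicate block 9 members were called in Ni_3D and 5 in Ni_3D+14D against Ni_3D. These were 23.7% and 13.2% of members, beside 0.616% and 0.221% of all genes. SLC16A1 alone was called in Ni_6W and in Control_6W against Control_3D, and PFKFB3 alone for the difference of responses. Each single call was 2.63% of members, beside 5.1%, 1.88% and 0.469% of all genes in that order. No paired analysis was possible because clone numbers name clones in the comparisons of Ni_clone.

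Over all genes, DESeq2 called 1889 in Ni_3D beside 647 by edgeR, 448 beside 38 in Ni_3D+14D against Ni_3D, 2098 beside 368 in Ni_6W, 2002 beside 746 in the clones against Control_6W, 48 beside 0 in Control_6W against Control_3D and 197 beside 0 for the difference of responses. Without Ni_6W replicate 2 there were 2871 genes in Ni_6W. With the block there were 92 in Ni_3D and 761 in Ni_6W, and with only the groups compared 243 in Ni_3D+14D against Ni_3D and 111 in Ni_6W. All libraries in 1 fit gave 464 in the clones against Control_6W. Among single members, 399 values kept their side of the threshold, 138 lost and 21 gained a call, and no sign reversed. Isozyme shares with 1 fixed length per gene, an alternative chosen after seeing the data, moved the 12 shares tried in Control_3D and Ni_3D by less than the spread between replicates and gave no value for the PDK kinases. The share of PFKFB2 in Ni_6W went from 5.05 to 4.96%, more than its SD of 0.0384; shares with an exonic length from the files were not run because no such length was found in the files.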
